A study of Saccharomyces cerevisiae with 9 samples.

Results

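Stress protein genes of budding yeast, 7 in number, whose products protect or rescue proteins and membranes, were followed through exposure to quantum dots, semiconductor nanocrystals with a zinc sulfide shell. They were chosen by name as small heat shock proteins, related stress proteins and disaggregases: HSP26, HSP42, HSP12, HSP30, HSP31, HSP104 and HSP78. Each of the 7 was found once among the 7012 entries of the CdSe/ZnS table and once among the 7042 of the InP/ZnS table, and each was tested in both. Saccharomyces cerevisiae strain S288C was grown in glucose medium to an optical density of 0.3 to 0.6 and then kept for 6 h at 30 °C and 220 rpm with CdSe/ZnS quantum dots (10 µg/mL, cadmium selenide core), with InP/ZnS quantum dots (100 µg/mL, indium phosphide core), or without quantum dots. The labels list 3 libraries in each of the 3 groups, 9 in all, with no word on separate cultures, so the p-values reflect how far these libraries scattered, and that scatter may be technical alone. Doses are those of the design text; for InP/ZnS the treatment text of the labels has mg/mL instead, so that unit is uncertain. The exposures differ in dose as well as in core, and these cannot be told apart.

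The deposited values pool the libraries of a group into 1 FPKM (fragments scaled to transcript length and to the number of fragments mapped) per gene and condition, so no value of a single library, no library total and no depth can be given. The error printed with a fold change, called its implied standard error, is the log2 fold change divided by the authors' test statistic. A 2-sided normal test on the authors' statistic, adjusted over all tested genes, served where a fold change was rescaled or compared between tables; without values per library no exact test over libraries could be run, so these p-values rest on a normal approximation. Calls rest on the authors' Cuffdiff q under 0.05. The authors' p is not a normal p on that statistic: HSP42 with CdSe/ZnS has a statistic of 1.60 and a Cuffdiff p of 0.0177. The normal test is stricter, with 280 genes higher and 1871 lower with CdSe/ZnS, against 606 and 2759 by the authors' q. A call lost in the normal test is thus judged more strictly than by the authors' q, and so are the 95% intervals. In bulk RNA, fewer cells with a transcript and less of it per cell cannot be told apart. The labels name only the strain. S288C is known as mating type alpha. Over the 4 condition columns, the a-cell genes MFA1 and MFA2 (pheromone) stood between 11133 and 30194 FPKM, STE2 (receptor) between 102 and 143 FPKM and BAR1 (protease) between 17.6 and 40.8 FPKM. Of the alpha-cell genes, MF(ALPHA)1 (pheromone) stood between 0.67 and 1.77 FPKM and STE3 (receptor) between 2.68 and 4.12 FPKM. MF(ALPHA)2, a minor pheromone gene, stood between 29.4 and 55.3 FPKM, above BAR1 in each column. Apart from MF(ALPHA)2, these levels are those of mating type a and go against alpha.

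Heat and other stresses unfold proteins, which then clump. Small heat shock proteins such as Hsp26 and Hsp42 bind unfolding proteins and hold them in a form from which they can be refolded; Hsp42 also gathers them into cytosolic deposits. Hsp104, a ring-shaped ATPase, pulls single chains out of such clumps together with Hsp70 and its Hsp40 partners, and Hsp78 does so in the mitochondrial matrix. Hsp12 is a small, unstructured protein that associates with the plasma membrane and does not resemble Hsp26 or Hsp42 in sequence; Hsp30 is a plasma membrane protein known to restrain the proton pump Pma1 under stress; Hsp31, of the DJ-1 family, detoxifies methylglyoxal. Transcription of many such genes is driven by Hsf1, which binds heat shock elements, and by Msn2 and Msn4, which bind stress response elements.

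The upstream regions of the 7 genes were read from RefSeq assembly R64. The deposited coordinates of all 7 coding regions were equal to those of R64, and no other entry of the tables overlapped them. Heat shock elements were searched as GAANNTTC or TTCNNGAA, stress response elements as AGGGG and Yap1 sites as TTACTAA or TTAGTAA, on both strands of the 500 bases before the start codon. The stretches below run from 20 bases before the first heat shock or stress response element to 20 bases after the last, 5′ to 3′ on the gene's strand, with the fixed letters of these elements in capitals. HSP42, HSP104 and HSP78 are shown because they share an unbroken run of heat shock element units followed by AGGGG copies, HSP12 because it carries AGGGG alone, HSP26 because it fell most of the 7 with CdSe/ZnS, and HSP31 because it rose most of the 7 with CdSe/ZnS.
HSP42, chrIV:806358-806463, plus strand: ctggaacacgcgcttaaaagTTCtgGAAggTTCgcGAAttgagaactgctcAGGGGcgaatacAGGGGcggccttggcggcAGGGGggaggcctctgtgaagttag
HSP104, chrXII:88301-88475, plus strand: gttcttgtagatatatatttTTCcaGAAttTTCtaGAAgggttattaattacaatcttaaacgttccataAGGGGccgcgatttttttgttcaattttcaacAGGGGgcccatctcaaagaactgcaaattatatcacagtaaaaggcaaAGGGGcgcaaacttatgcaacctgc
HSP78, chrIV:974349-974510, minus strand: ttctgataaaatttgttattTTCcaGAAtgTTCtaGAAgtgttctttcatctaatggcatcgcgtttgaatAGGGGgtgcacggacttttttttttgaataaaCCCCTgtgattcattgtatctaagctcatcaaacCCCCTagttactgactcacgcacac
HSP12, chrVI:106801-107090, plus strand: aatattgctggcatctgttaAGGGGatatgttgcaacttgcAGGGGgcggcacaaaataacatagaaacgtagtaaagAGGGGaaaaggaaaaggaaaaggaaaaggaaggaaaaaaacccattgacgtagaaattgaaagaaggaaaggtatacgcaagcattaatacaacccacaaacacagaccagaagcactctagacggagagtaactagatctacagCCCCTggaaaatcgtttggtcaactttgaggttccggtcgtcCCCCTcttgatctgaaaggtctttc
HSP26, chrII:381531-381728, plus strand: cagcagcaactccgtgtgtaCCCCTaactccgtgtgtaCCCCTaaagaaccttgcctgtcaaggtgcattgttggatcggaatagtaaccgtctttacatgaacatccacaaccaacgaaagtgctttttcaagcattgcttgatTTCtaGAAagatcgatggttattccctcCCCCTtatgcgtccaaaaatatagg
HSP31, chrIV:1502337-1502402, minus strand: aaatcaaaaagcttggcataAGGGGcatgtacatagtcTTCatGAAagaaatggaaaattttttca

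Heat shock elements were found upstream of 5 of the 7 genes (71.4%), against 35.1% of 6019 protein-coding genes with a full window. In HSP42, HSP104 and HSP78 there were 3 overlapping matches each, in which GAA and TTC units alternate without a break; 1.78% of all windows held 3 or more matches. HSP26 and HSP31 held 1 match each, and HSP12 and HSP30 held 0. Stress response elements were found upstream of 6 of the 7 genes (85.7%), against 34.0% of all windows. HSP12 had 5, HSP26, HSP42, HSP104 and HSP78 had 3 each, and HSP31 had 1; 3 or more were found in 1.83% of all windows. HSP30 had 0 of either and 1 Yap1 site, 23 to 17 bases before its start codon, a motif that 11.8% of all windows held. The letters of heat shock and stress response elements did not overlap in the 7 genes. The far end of the printed HSP12 stretch overlaps the coding region of YFL015C. These matches describe the sequence and are no measure of factor binding.

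**Figure D1:**
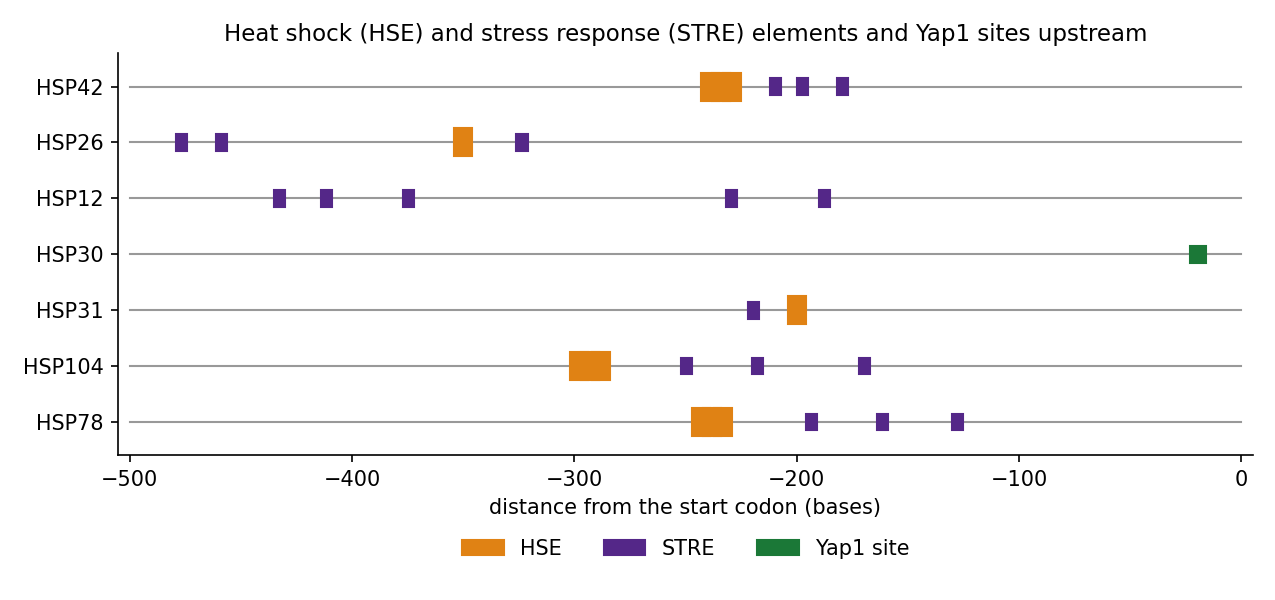
Position of heat shock elements (HSE), stress response elements (STRE) and Yap1 sites in the 500 bases before the start codon of the 7 genes, with the distance from the start codon in bases on the x axis and 1 gene per row. HSP42, HSP104 and HSP78 each show 1 block made of 3 overlapping heat shock element matches with 3 stress response elements between it and the start codon, while HSP12 shows 5 stress response elements alone.

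The 7 genes were strongly expressed already without quantum dots. In untreated cells the lowest of them, HSP31, stood at percentile 91.3 of the tested genes by FPKM in the CdSe/ZnS table and 91.1 in the InP/ZnS table. The untreated order was the same in both tables: HSP12 was highest, followed by HSP42, HSP26, HSP30, HSP78, HSP104 and HSP31. Untreated levels ran between 448 FPKM for HSP31 and 2018 FPKM for HSP12 in the CdSe/ZnS table, and between 504 and 2556 FPKM for the same genes in the InP/ZnS table. Each neighbour in that order was within 2 errors of the next. The error of a gap combines the implied standard errors of both genes (square root of their summed squares). The widest gap, between HSP12 and HSP42 in the CdSe/ZnS table, was 1.93 errors. These are errors of fold changes, since no error of a level within 1 condition can be given. Gaps between levels in such errors, here and below, are therefore only a rough scale. The untreated values differed between the 2 tables: the InP/ZnS table gave untreated values 1.14 times those of the CdSe/ZnS table in the median over 5630 genes, and 1.12 (HSP26) to 1.27 times (HSP12) for the 7 genes. Each table is therefore read against its own untreated column.

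With InP/ZnS all 7 genes rose, by 1.95-fold to 3.69-fold. Of the 7, all 7 were called higher and 0 lower in the authors' deposited table. Of all 6367 tested genes, 23.9% were called higher and 17.2% lower. Each of the 7 had q = 0.000252 in the authors' deposited table, the smallest that table holds. Other genes share this floor, YRO2 at a log2 fold change of 0.61 among them, so it does not rank the 7. The median log2 fold change of the 7 was 1.39, against 0.07 for all tested genes. Summed over the 7 genes, the level was 23143 FPKM with InP/ZnS and 7790 FPKM in untreated cells, a ratio of 2.97. All 7 remained called higher in the 6 alternatives that set no minimum fold change.

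Among the small heat shock proteins, HSP42 showed the largest rise of the 7 genes, to 5698 FPKM with InP/ZnS against 1542 FPKM in untreated cells (log2 fold change 1.89, implied standard error 0.31). That placed it 91st from the top among all tested fold changes. HSP26 showed the smallest, to 2022 FPKM with InP/ZnS against 1039 FPKM in untreated cells (log2 fold change 0.96, implied standard error 0.26). The membrane-associated HSP12 reached 8460 FPKM with InP/ZnS against 2556 FPKM in untreated cells (log2 fold change 1.73, implied standard error 0.25), and moved to rank 22 of all tested genes by FPKM, against rank 96 in untreated cells. HSP30, the plasma membrane protein, had 2013 FPKM with InP/ZnS and 874 FPKM in untreated cells (log2 fold change 1.20, implied standard error 0.27). All 4 lay above their untreated values by more than 3 implied standard errors.

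The methylglyoxalase gene HSP31 rose to 1309 FPKM with InP/ZnS against 504 FPKM in untreated cells, 2.60-fold (log2 fold change 1.38, implied standard error 0.25). HSP104, the cytosolic disaggregase gene, rose to 1952 FPKM with InP/ZnS against 630 FPKM in untreated cells, 3.10-fold (log2 fold change 1.63, implied standard error 0.31). HSP78, its mitochondrial counterpart, rose to 1691 FPKM with InP/ZnS against 644 FPKM in untreated cells, 2.62-fold (log2 fold change 1.39, implied standard error 0.30). Between the disaggregase genes, HSP104 stood 0.24 above HSP78 on the log2 fold change scale, with an error of 0.43. With InP/ZnS the order of levels was HSP12, HSP42, HSP26, HSP30, HSP104, HSP78 and HSP31. Only the step between HSP42 and HSP26, 2.82-fold, exceeded 2 errors (3.68), and the last 5 genes lay between 1309 and 2022 FPKM.

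**Figure D2:**
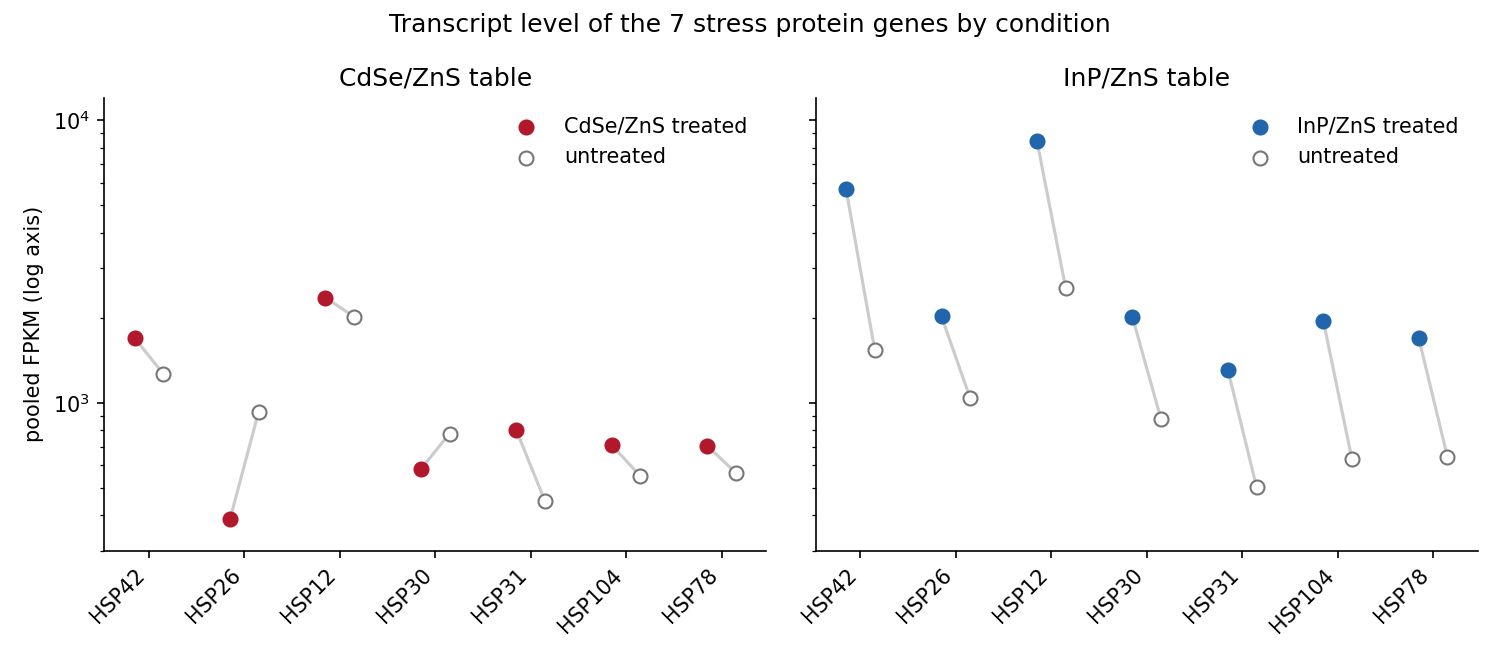
Pooled FPKM of the 7 genes on a log axis, in the CdSe/ZnS table (left) and the InP/ZnS table (right); filled points are exposed cells, open points untreated cells of the same table, and grey lines join the values of a gene. Every filled point lies above its open point on the right, whereas on the left HSP26 (387 against 930 FPKM) and HSP30 (583 against 778 FPKM) lie below theirs.

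With CdSe/ZnS the same genes went in different directions. HSP31 and HSP42 rose, HSP26 and HSP30 fell, and HSP12, HSP104 and HSP78 did not pass the test. In the authors' deposited table this is 2 of 7 higher and 2 lower at q under 0.05; of all 6321 tested genes 9.59% were called higher and 43.6% lower. The log2 fold changes of the 7 spanned 2.10, between -1.27 and 0.83, against 0.93 with InP/ZnS, and their median was 0.32. Summed over the 7 genes, the level was 7236 FPKM with CdSe/ZnS and 6558 FPKM in untreated cells, a ratio of 1.10.

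The median of all tested genes was itself -0.35 with CdSe/ZnS, so each change is also given relative to it. Relative to that median, in a normal test on the implied standard errors, 4 of 7 genes were higher (HSP12, HSP42, HSP31 and HSP104) and 1 lower (HSP26), while 11.9% of all genes were higher and 13.6% lower. The median of the 7 was then 0.66.

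HSP26 fell to 387 FPKM with CdSe/ZnS against 930 FPKM in untreated cells, 2.40-fold lower (log2 fold change -1.27, implied standard error 0.25). Its q in the authors' deposited table was 0.000173, the smallest there and shared with other genes. Relative to the median of all genes it stood at -0.92 and still passed (adjusted p = 0.00173, normal test on the authors' statistic), and with the trend of fold change with coding length removed it stood at -0.65 (adjusted p = 0.0385, normal test on the authors' statistic). It was last of the 7 genes by level with CdSe/ZnS, against the third place in untreated cells, though 1.64 errors below HSP30, a gap within 2 errors. HSP42, the other small heat shock protein gene, had 1696 FPKM with CdSe/ZnS and 1269 FPKM in untreated cells (log2 fold change 0.42, implied standard error 0.26, q = 0.035 in the authors' deposited table). That call was lost in the normal test without rescaling (adjusted p = 0.216) and held relative to the median of all genes, at 0.77 (adjusted p = 0.0175, normal test on the authors' statistic).

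HSP30 had 583 FPKM with CdSe/ZnS and 778 FPKM in untreated cells (log2 fold change -0.41, implied standard error 0.26, q = 0.0243 in the authors' deposited table). Relative to the median of all genes its change was -0.07 (adjusted p = 0.891, normal test on the authors' statistic), and it turned to 0.04 with the length trend removed and to 0.11 on the TPM scale, so its direction depends on the scaling. HSP12 had 2357 FPKM with CdSe/ZnS and 2018 FPKM in untreated cells (log2 fold change 0.22, 95% interval -0.22 to 0.67, q = 0.229 in the authors' deposited table). Relative to the median it stood at 0.57 (adjusted p = 0.0495, normal test on the authors' statistic). HSP12 is the shortest of the 7 coding regions at 330 bp, and with the length trend removed its change was 0.92 (adjusted p = 0.0008, normal test on the authors' statistic).

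HSP31 showed the largest rise with CdSe/ZnS, to 800 FPKM against 448 FPKM in untreated cells, 1.78-fold (log2 fold change 0.83, implied standard error 0.25), with q = 0.000173 in the authors' deposited table. It moved to the third place in the order of levels with CdSe/ZnS, against last in untreated cells. It lay only 0.47 such errors above HSP104 there, so this place is uncertain. With CdSe/ZnS only the step between HSP42 and HSP31 exceeded 2 errors. HSP31 passed the normal test on every scale tried. HSP104 had 708 FPKM with CdSe/ZnS and 550 FPKM in untreated cells (log2 fold change 0.37, 95% interval -0.18 to 0.91, q = 0.0686 in the authors' deposited table). HSP78 had 704 FPKM with CdSe/ZnS and 565 FPKM in untreated cells (log2 fold change 0.32, 95% interval -0.22 to 0.86, q = 0.126 in the authors' deposited table). Relative to the median these disaggregase genes stood at 0.71 and 0.66, on either side of the threshold (adjusted p = 0.0417 for HSP104 and 0.0606 for HSP78, normal test on the authors' statistic). HSP104 and HSP78 differed by 0.05 in log2 fold change with an error of 0.39, and their levels with CdSe/ZnS were within 1.01-fold of each other.

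**Figure D3:**
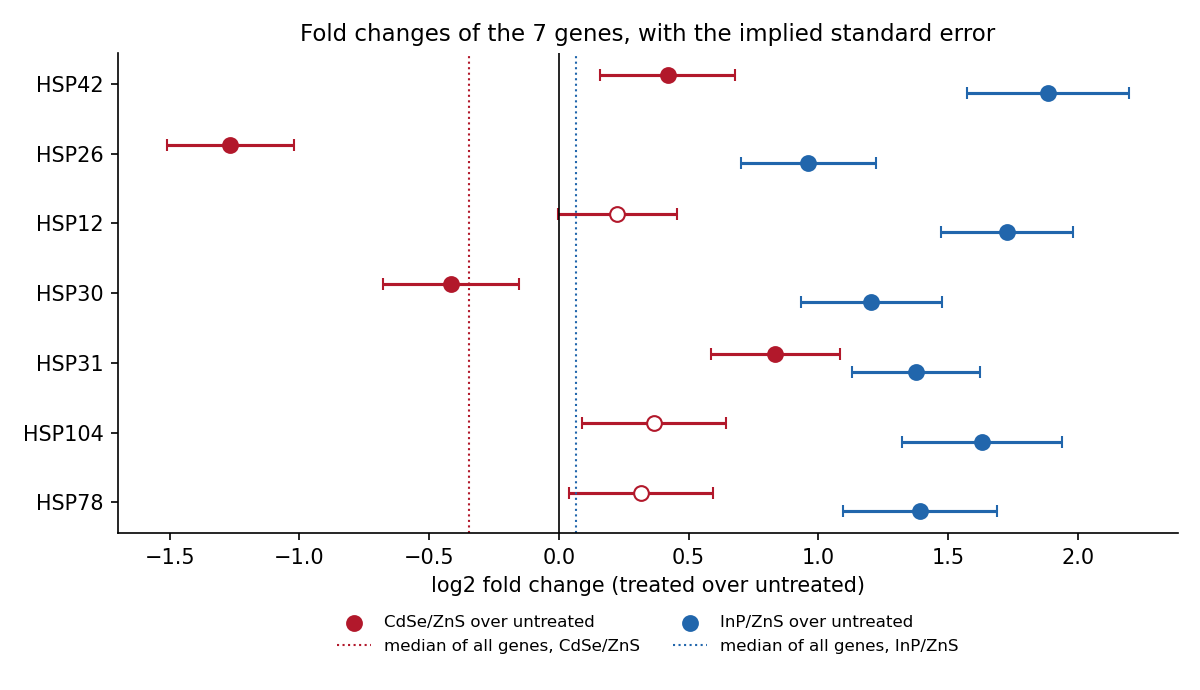
Log2 fold change of the 7 genes over untreated cells with CdSe/ZnS (red) and InP/ZnS (blue); bars are the implied standard error, filled points passed the authors' q under 0.05, open points did not, and dotted lines mark the median of all tested genes (-0.35 and 0.07). The blue points lie between 0.96 and 1.89, and the red points between -1.27 for HSP26 and 0.83 for HSP31.

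The small heat shock protein genes HSP26 and HSP42 parted in both exposures. With CdSe/ZnS the fold change of HSP26 was 1.68 below that of HSP42 on the log2 scale (difference -1.68, error 0.36), and with InP/ZnS 0.93 below it (difference -0.93, error 0.41). The FPKM of HSP42 was 4.38 times that of HSP26 with CdSe/ZnS and 1.36 times in the same table's untreated cells. With InP/ZnS it was 2.82 times that of HSP26, and 1.48 times in untreated cells.

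The difference between the exposures was tested for each gene as the CdSe/ZnS minus the InP/ZnS log2 fold change, with p adjusted over all 6290 genes tested in both tables. It was below 0 for all 7 genes and passed for 5 (HSP26, HSP30, HSP12, HSP42 and HSP104); 12.0% of all genes were called lower with CdSe/ZnS in this test. Since the untreated libraries are shared, this error is too large where they vary. HSP26 differed most, by -2.23 (error 0.36, adjusted p = 1.76e-07, normal test on the authors' statistic), with -1.27 under CdSe/ZnS and 0.96 under InP/ZnS. HSP30 differed by -1.62 (adjusted p = 0.000737), HSP12 by -1.50 (adjusted p = 0.000529), HSP42 by -1.47 (adjusted p = 0.00668) and HSP104 by -1.26 (adjusted p = 0.0262, normal test on the authors' statistic for each). HSP78 missed the threshold at -1.08 (95% interval -1.87 to -0.28, adjusted p = 0.0589), and so did HSP31 at -0.54 (95% interval -1.23 to 0.15, adjusted p = 0.331, normal test on the authors' statistic).

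Over all genes the median of this difference was -0.41 as deposited and 0.14 on the TPM scale, so its sign depends on the scaling. With each fold change taken relative to its own median, 3 of the 7 passed, HSP26 at -1.81, HSP12 at -1.09 and HSP30 at -1.21 (adjusted p = 0.000131, 0.0478 and 0.0467, normal test on the authors' statistic), while 2.07% of all genes were called lower with CdSe/ZnS. With the length trend removed, and likewise on the TPM scale, HSP26 alone of the 7 passed, at -1.60 and -1.67 (adjusted p = 0.0018 and 0.000732, normal test on the authors' statistic). Of all genes, 1.80% were lower and 1.11% higher with CdSe/ZnS once the length trend was removed. On the TPM scale the balance over all genes turned, with 1.53% lower and 2.38% higher with CdSe/ZnS. HSP31 had the smallest difference, -0.13 relative to the medians and 0.02 with the length trend removed.

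**Figure D4:**
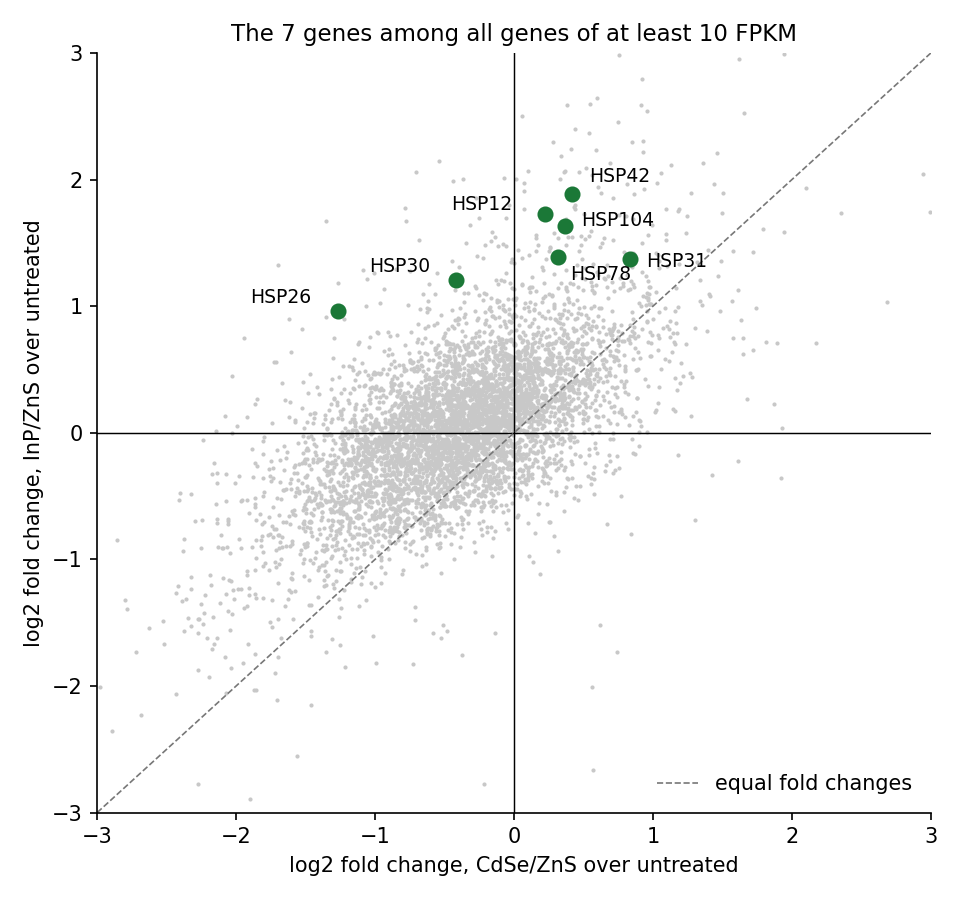
Log2 fold change with CdSe/ZnS (x axis) and InP/ZnS (y axis), each over untreated cells, for 5716 genes of at least 10 FPKM in a condition of each table (grey; 22 lie outside the axes) and the 7 genes (green, with names); the axes share the untreated libraries, and the dashed line marks equal fold changes. All 7 lie above the dashed line, HSP31 nearest to it, and HSP26 and HSP30 lie left of 0 on the x axis and above 0 on the y axis.

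The genes whose products work with the 7 were then described as lists. Of the 9 genes for Hsp70 chaperones, their Hsp110 and Hsp40 partners and an exchange factor, which act with Hsp104, 9 rose with InP/ZnS (median log2 fold change 1.14) and 7 rose with CdSe/ZnS (median 0.62), with 0 lower in either. Among all tested genes, 23.9% were higher and 17.2% lower with InP/ZnS (median 0.07). With CdSe/ZnS 9.59% of all tested genes were higher and 43.6% lower (median -0.35). In the normal test without rescaling the 9 became 8, without SSA2, and the 7 became 5, without SSE1 and YDJ1. SSA4, the stress-induced Hsp70 gene, rose to 961 FPKM with InP/ZnS against 166 FPKM in untreated cells, and to 448 FPKM with CdSe/ZnS against 142 FPKM in untreated cells. SSA3, another inducible Hsp70 gene, rose by 0.90 on the log2 scale with CdSe/ZnS, and SSE2, an Hsp110 gene, by 1.58 with InP/ZnS. SSA1 rose by 1.71 with InP/ZnS and 1.24 with CdSe/ZnS, but is uncertain, since another entry overlaps its locus and SSA2 is a near-identical copy. BTN2 and CUR1, which sort misfolded proteins into deposits, rose with InP/ZnS by 1.17 and 1.09; with CdSe/ZnS BTN2 rose by 0.59, and CUR1 stood at 0.27 (q = 0.113, authors' deposited table). The BTN2 call with CdSe/ZnS was lost in the normal test (adjusted p = 0.0732 on the authors' statistic).

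The mitochondrial folding partners of Hsp78 did not follow one direction. With InP/ZnS 4 of 7 rose and 1 fell (median 0.58), and with CdSe/ZnS 1 rose and 4 fell (median -0.48, against -0.35 for all genes). ECM10, 1 of these 4 and itself the median, stood at 5.28 FPKM with CdSe/ZnS against 7.36 FPKM in untreated cells. Both values lie below the floor of 10 FPKM, and another entry overlaps the ECM10 locus. The ECM10 call was lost in the normal test on the authors' statistic (adjusted p = 0.177). Of all tested genes, 23.9% rose and 17.2% fell with InP/ZnS, and 9.59% rose and 43.6% fell with CdSe/ZnS. SSC1, the matrix Hsp70 gene, rose by 0.80 with InP/ZnS and by 0.75 with CdSe/ZnS on the log2 scale. MDJ1, its Hsp40 partner, rose by 1.01 and HSP60, the chaperonin gene, by 0.73 with InP/ZnS. With CdSe/ZnS ZIM17, which keeps matrix Hsp70 soluble, fell by 1.04 and MGE1, its nucleotide exchange factor, fell by 0.91; in place of these 4 lower calls there were 1 relative to the median of all genes, ZIM17, and 0 with the length trend removed. With InP/ZnS the 4 higher calls became 2 relative to the median, without HSP60 among them, and the lower call, ZIM17, was lost in the normal test.

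Relatives of HSP31 were weakly expressed. HSP33 and SNO4, which are nearly identical to each other, stood at 5.17 FPKM or less in every column, so reads of this group cannot be assigned with certainty, and no row was found for HSP32. Of the 5 tested genes of that list, which also holds the glyoxalase genes that clear methylglyoxal through glutathione, 2 rose and 0 fell with InP/ZnS, and 1 rose and 2 fell with CdSe/ZnS; HSP33 is in both higher counts and passed no floor of 10 FPKM. GLO1 rose by 0.81 with InP/ZnS, and with CdSe/ZnS GLO2 fell by 0.84 and GLO4 fell by 1.05, of which GLO2 was lost relative to the median of all genes and both with the length trend removed. Of the 4 genes for relatives of Hsp30 and the proton pump, 1 rose and 1 fell with InP/ZnS. With CdSe/ZnS 1 rose and 2 fell. Of all tested genes, 23.9% were higher and 17.2% lower with InP/ZnS, and 9.59% higher and 43.6% lower with CdSe/ZnS. The lower counts of this and the preceding list with CdSe/ZnS are near that share. YRO2, a relative of HSP30, had log2 fold changes of -0.40 with CdSe/ZnS and 0.61 with InP/ZnS. Both calls were lost in the normal test, and the change with CdSe/ZnS turned to 0.04 with the length trend removed and 0.13 on the TPM scale. MRH1, also a relative, fell by 0.74 with CdSe/ZnS, a call lost relative to the median of all genes (-0.39). PMA1, the proton pump that Hsp30 restrains, fell by 0.37 with InP/ZnS (q = 0.0357 in the authors' deposited table), a call lost in the normal test (adjusted p = 0.38). PMA2, the minor pump gene and a close copy of PMA1, so that reads may be shared, rose by 0.34 with CdSe/ZnS, a call also lost in the normal test on the authors' statistic (adjusted p = 0.245).

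Small stress proteins other than HSP12 included GRE1, which fell with both quantum dots. Of 5 genes, 3 rose and 1 fell with InP/ZnS (median 0.55), beside 23.9% higher and 17.2% lower of all genes. DDR48, 1 of the 3, rose by 0.55, a call lost in the normal test on the authors' statistic (adjusted p = 0.345). Its value is also uncertain, since another entry overlaps its locus. With CdSe/ZnS 0 rose and 2 fell (median -0.45, against -0.35 for all genes). Beside these stand 9.59% higher and 43.6% lower of all genes, so the lower count is near that share. GRE1, a hydrophilin gene of osmotic stress, fell to 539 FPKM with InP/ZnS against 1598 FPKM in untreated cells. With CdSe/ZnS it fell to 250 FPKM against 1292 FPKM in untreated cells. SIP18, a related hydrophilin gene, rose by 1.99 and DDR2, a stress-induced gene, by 1.51 with InP/ZnS, and HOR7, a hyperosmolarity-responsive gene, fell by 0.99 with CdSe/ZnS, a call lost with the length trend removed (-0.24).

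Known targets of Hsf1, and of Msn2 and Msn4, were counted next. Among 15 Hsf1 targets other than the 7 genes, 15 rose with InP/ZnS (median 1.17) and 12 with CdSe/ZnS (median 0.62), and 0 fell in either; 9 of the 15 also stand in the lists above. In the normal test without rescaling the 15 with InP/ZnS became 14, without SSA2. The 12 with CdSe/ZnS became 8, without BTN2, CPR6, MBF1 and YDJ1. A minimum absolute log2 fold change of 1 left 13 with InP/ZnS and 5 with CdSe/ZnS. HSP82, the inducible Hsp90 gene, rose by 1.75 with InP/ZnS, and HSC82, its near-identical constitutive copy, rose by 1.39 with CdSe/ZnS, so the reads of this pair are uncertain. Among 10 Msn2 and Msn4 targets of carbohydrate and redox metabolism, 9 rose and 0 fell with InP/ZnS (median 1.49). With CdSe/ZnS 4 rose and 1 fell (median 0.24). In the normal test without rescaling the 9 became 8, without GRE3, and the 4 became 2. The shares of all tested genes were 23.9% higher and 17.2% lower with InP/ZnS, and 9.59% higher and 43.6% lower with CdSe/ZnS. PGM2, GLC3 and SOL4, genes of sugar phosphate and glycogen metabolism, rose by 2.99, 2.59 and 2.30 with InP/ZnS. With CdSe/ZnS GAC1, a regulator of glycogen synthesis, rose by 0.92 and PGM2 by 0.76, while ALD3, an aldehyde dehydrogenase gene, fell by 1.85. The difference between the lists was not tested.

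**Figure D5:**
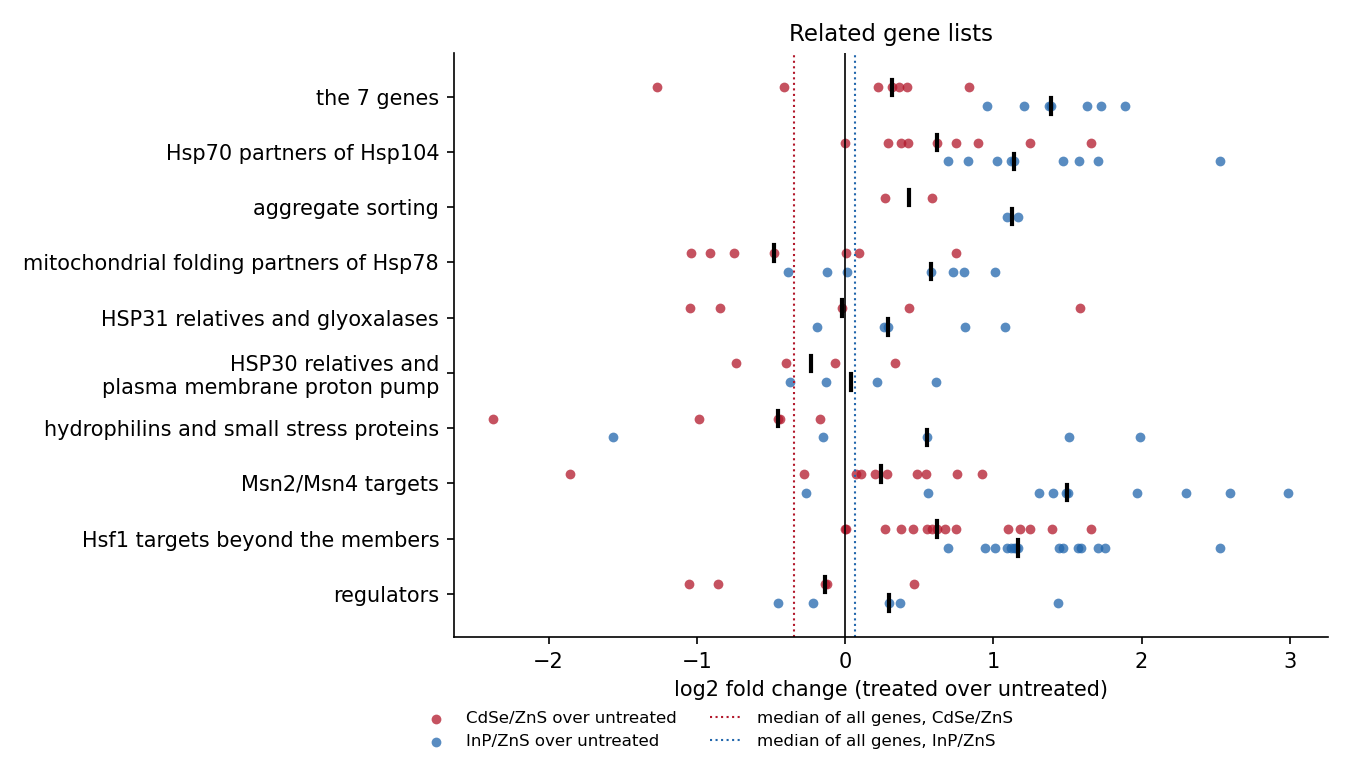
Log2 fold change over untreated cells of the 7 genes and of the genes of each list, with CdSe/ZnS (red) and InP/ZnS (blue); black bars are list medians and dotted lines the medians of all tested genes. With InP/ZnS the 15 Hsf1 targets lie between 0.69 and 2.53, and with CdSe/ZnS between 0.00 and 1.66.

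Of the 5 regulator genes, 2 rose and 1 fell with InP/ZnS, and 1 rose and 2 fell with CdSe/ZnS, beside 23.9% higher and 17.2% lower of all genes with InP/ZnS and 9.59% higher and 43.6% lower with CdSe/ZnS, so the lower counts are near those shares. GIS1, a stress and nutrient regulator that binds elements related to the stress response element, rose by 1.43 with InP/ZnS and by 0.46 with CdSe/ZnS on the log2 scale. MSN2 fell by 0.45 with InP/ZnS and by 1.05 with CdSe/ZnS. MSN4 fell by 0.86 with CdSe/ZnS, a call lost relative to the median of all genes, and had a change of -0.22 with InP/ZnS (q = 0.212, authors' deposited table). The GIS1 call with CdSe/ZnS and the MSN2 call with InP/ZnS were lost in the normal test on the authors' statistic (adjusted p = 0.106 and 0.168). HSF1, uncertain because another entry overlaps it, did not pass with InP/ZnS (0.29) or CdSe/ZnS (-0.14). YAP1, the oxidative stress regulator, rose by 0.37 with InP/ZnS (q = 0.0194 in the authors' deposited table), a call lost in the normal test (adjusted p = 0.325), and stood at -0.12 with CdSe/ZnS.

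The genes with the most similar response to each of the 7 were taken as the 2 nearest by Euclidean distance over the 2 log2 fold changes, among 5716 genes; these are only 2 values per gene, and their comparisons share the untreated libraries. HSP12 lay nearest to KIN82, a protein kinase gene (distance 0.01), and DCS2 (0.16), and HSP104 nearest to DCS2 (0.06) and CRC1, the mitochondrial carnitine carrier gene (0.09). HSP42 lay nearest to NDE2, a mitochondrial NADH dehydrogenase gene (0.09), and EIS1 (0.11), and HSP78 to YGL010W (0.04) and YNL144C (0.08). For HSP26 the nearest were YOR121C (0.07) and STF2, a hydrophilin gene (0.10). STF2 had log2 fold changes of -1.35 with CdSe/ZnS and 0.92 with InP/ZnS, beside -1.27 and 0.96 for HSP26. HSP30 lay nearest to COA2, a cytochrome oxidase assembly gene (0.08), and GGA1 (0.11), and HSP31 to GAS2 (0.03) and YAT1, a carnitine acetyltransferase gene (0.05). Other entries overlap EIS1, YNL144C and YOR121C, whose values are uncertain.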

How the data were processed

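RNA-seq of 3 libraries per group was analysed from 2 tables, 1 per quantum dot. Per the labels' protocols, mRNA was isolated with a stranded kit and the cDNA was amplified by PCR; whether reads were counted by strand is not given in the sources used here. Per the deposited text sheets, reads were cleaned of bases scoring below quality 20, cut by 12 bases at the 5′ end and discarded below 80 bp, then aligned to the S288C genome of SGD with TopHat; Cuffdiff is named in the submitters' processing notes, with no version. FPKM were deposited by the authors as 1 pooled value per gene and condition. The log2 fold change was deposited by the authors without a pseudocount, treated over untreated. The test score is the statistic in the deposited tables. The authors also deposited a p-value and a q-value for each gene. The treated column was identified from the deposited lists of higher and lower genes, all 606, 2759, 1522 and 1096 of which had the matching sign. Depth is unknown.

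Of the entries alone at their locus, 99.5% and 99.6% had the coordinates of R64. From the deposited values the following were computed in Python 3.11.15 (scipy 1.17.1): implied standard errors, a normal test (2-sided; Benjamini-Hochberg over every tested gene of a table), and the difference between the quantum dots. It was repeated relative to the median of all tested genes, after removing the trend with coding length (medians of 20 bins, for the 90.1% of tested genes with a length in each table) and after rescaling FPKM to TPM. Scripts were checked on simulated data. No value per library was available, so the authors' test was the main result. Members, lists and tests were chosen with earlier results of these data known. Named genes were the 7, all regulators, up to 3 genes per list and comparison with the largest absolute log2 fold change (q under 0.05, at least 10 FPKM in a condition), and the 2 nearest genes. CUR1 with CdSe/ZnS, HSP33, SNO4, CPR6, MBF1, YDJ1, SSE1, SSA2, GRE3, DDR48 and ECM10 were named after their values were seen. So were the mating-type genes that miss this rule (MF(ALPHA)1 and STE3).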

Additional observations from a re-analysis of the deposited data

Results flagged for a closer look

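For 5 of the 7 genes the change over untreated cells differed between the quantum dots in the test of the difference itself, CdSe/ZnS minus InP/ZnS on the log2 scale: HSP12 at -1.50, HSP26 at -2.23, HSP42 at -1.47, HSP30 at -1.62 and HSP104 at -1.26 (normal test, adjusted over 6290 genes). Of all genes, 12.0% were lower with CdSe/ZnS in this test and the median difference was -0.41; relative to the medians the 5 became 3, and with the length trend removed or on the TPM scale 1. By the authors' q, HSP26 and HSP30 were called lower with CdSe/ZnS and higher with InP/ZnS. Of all tested genes, 43.6% were called lower with CdSe/ZnS and 23.9% higher with InP/ZnS. The HSP30 call with CdSe/ZnS was lost in the normal test on the authors' statistic (adjusted p = 0.224), and its direction depends on the scaling. HSP26 kept its call under the 4 alternatives of that test, while the part that dose plays in any of these differences cannot be told apart from that of the core.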

How the results depend on the processing

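The number of the 7 genes called higher with InP/ZnS was 7 under every alternative but a minimum absolute log2 fold change of 1, which left 6, without HSP26; 0 were lower throughout. With CdSe/ZnS the count of 2 higher became 1 with q under 0.01, 0 with that minimum, 1 in the normal test as deposited, 4 relative to the median of all genes and 5 on the TPM scale, which was chosen after seeing the data; the length trend removed gave 3. The count of 2 lower became 1 under all of these, the remaining gene being HSP26. With CdSe/ZnS HSP30 reversed to 0.040 with the length trend removed and 0.11 on the TPM scale, and YRO2 to 0.038 and 0.13; the cause was not tested. TPM rescaling moved all CdSe/ZnS log2 fold changes by 0.52, and those of InP/ZnS by -0.03. The normal test called 280 genes higher and 1871 lower with CdSe/ZnS as deposited, against 752 and 862 relative to the median and 1168 and 556 as TPM. The 5 genes that differed between the quantum dots became 3 relative to the medians, 1 with the length trend removed and 1 as TPM; with adjusted p under 0.01 there were 4. A pseudocount of 1 or a floor of 10 FPKM changed no call of the 7. No paired analysis was possible because the files used here hold 1 pooled value per condition; for the same reason no replicate could be left out. Depth, and what it limits, is unknown.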
